A study of Mus musculus with 18 samples.

Results

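The subject is 10 genes that carry a cell through the G1 phase of its cycle and into S phase: Ccnd2, Ccnd3, Ccne1, Ccne2, Cdk4, Cdk6, E2f1, E2f2, Cdkn1b and Skp2. They were picked by gene name from a table of raw read counts for 14695 genes, and all 10 were present and passed the filter on low counts. With the drug halofuginone Ccnd2, Cdk6 and Cdkn1b rose and the other 7 fell, in each of 3 genotypes. The counts come from poly-A RNA of CD8+ T cells, the cytotoxic T cells, taken from mouse spleen and lymph node. The 18 libraries fall into 6 groups of 3: Atf4 KO cells (ATF4 KO in the labels) with halofuginone and untreated, Cebpg KO cells (CEBPG KO) with halofuginone and untreated, and Rosa26 cells with halofuginone and untreated. CRISPR/Cas9 had been aimed at 1 locus in each cell population, the Rosa26 control population included, and cultures with and without the drug ran for 24 hours. The labels state no age, strain or sex of the mice, no guide sequences, no share of edited cells, and nothing on whether replicates came from separate mice, so p-values measure the spread between these libraries, which may be technical.

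Cyclins D2 and D3 (Ccnd2, Ccnd3) bind and switch on the kinases CDK4 and CDK6, which phosphorylate the retinoblastoma protein and so release E2F transcription factors from it. E2F1 and E2F2 then drive genes of DNA replication and the E cyclins (Ccne1, Ccne2), whose partner kinase CDK2 completes the step into S phase. The brake is p27 (Cdkn1b), an inhibitor of cyclin and CDK complexes, and Skp2 is the F-box subunit of the ubiquitin ligase that marks p27 for destruction. In CD8+ T cells this machinery is raised after activation, which starts rapid division. Halofuginone blocks prolyl-tRNA synthetase, so that uncharged tRNA builds up and the kinase GCN2 sets off the amino acid response; ATF4 is the transcription factor of that response, and C/EBP gamma (Cebpg) is a leucine zipper protein that pairs with ATF4 on DNA. Rosa26 is a locus often used as a neutral target for the control guide.

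Total counts ran from 14190361 to 20281602 reads per library. The lowest count of any of the 10 genes in any library was 102 reads, for Skp2. Levels are given as CPM, TMM-scaled counts relative to library size. The 7 CD8 T cell markers summed to between 3017 and 4118 CPM in every library, with Thy1 the highest. Of 3 CD4 T cell markers 2 were measured (Zbtb7b and Foxp3, summed 8.19 to 36.3 CPM), and Cd4 was not found under that name among the genes analysed. Of 4 B cell markers 2 were measured (Cd79a and Cd79b, 3.18 to 7.65 CPM), and of the 4 myeloid, 2 NK and 2 erythroid markers none. Transcript level does not check the edits, since small insertions and deletions can leave the RNA in place: Atf4 lay at 267 to 378 CPM in Atf4 KO cells with halofuginone and 274 to 301 CPM in untreated ones, against 351 to 428 CPM and 256 to 281 CPM in Rosa26 cells, and Cebpg lay at 93.4 to 105 CPM in Cebpg KO cells with halofuginone and 53.9 to 58.5 CPM in untreated ones, against 167 to 183 CPM and 52.8 to 55.1 CPM in Rosa26 cells. In Atf4 KO cells with halofuginone Cebpg lay at 123 to 137 CPM. Within each drug group 1 library stood apart by a low level of the nuclear RNA Malat1: 1158 CPM in Atf4 KO replicate 3 (others 2404 and 3416), 1960 CPM in Cebpg KO replicate 3 (others 3237 and 3580) and 672 CPM in Rosa26 replicate 2 (others 2074 and 2607). Agreement of counts over all genes, as chi-square per degree of freedom, set Cebpg KO replicate 2 furthest apart instead. It was 26.7 against replicate 1 and 18.3 against replicate 3, beside 11.1 between replicates 1 and 3. These are bulk samples, so fewer cells of a kind (for example, fewer cells in S phase) and less RNA per cell cannot be told apart.

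The start regions are shown because members of the E2F family act on such sequences and ATF4 is one of the targeted genes, so both kinds of site were looked for. RefSeq start regions on GRCm38.p6 (250 bases before to 50 after an annotated start) were found for 8 of the 10 genes, in places more than 1 per gene. Those of E2f1 and Cdk6 lie wholly inside the gene as GENCODE annotates it, past its annotated start. They do not cover the bases before that start. The same holds for the downstream one of the windows of E2f2, of Ccnd3 and of Skp2. The search covered both strands for 4 E2F forms, TTTCCCGC, TTTCGCGC, TTTGCCGC and TTTGGCGC, and for the amino acid response element TGATGNAA. One match was found, an E2F form in the upstream one of the E2f2 windows, at bases 40 to 47 after its RefSeq start. Of all 32851 windows, 2.26% held an E2F form and 3.97% held the response element. CCAAT, added after the windows had been read, occurred in 37.4% of all windows. Before the start it was present once in this E2f2 window and at a pair of places in the Cdkn1b window. It was also present before the RefSeq start in the other E2f2 window and in a window each of Ccnd3 and Skp2, which fell with the drug. That E2f2 window and that Ccnd3 window are the ones inside the gene. The first line below gives 30 bases of E2f2 with the E2F form in capitals (chr4:136172294-136172323, plus strand). The others give the 250 bases before the start, CCAAT in capitals, for that E2f2 window (chr4:136172024-136172273, plus strand), for Cdkn1b, which rose with the drug (chr6:134920151-134920400, plus strand), and for Ccne1, which fell (chr7:38107491-38107740, minus strand). A match of letters is no binding site, and the absence of one says only that these letters are not in this window.
E2f2 after the start: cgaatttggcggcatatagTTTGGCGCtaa
E2f2 before the start: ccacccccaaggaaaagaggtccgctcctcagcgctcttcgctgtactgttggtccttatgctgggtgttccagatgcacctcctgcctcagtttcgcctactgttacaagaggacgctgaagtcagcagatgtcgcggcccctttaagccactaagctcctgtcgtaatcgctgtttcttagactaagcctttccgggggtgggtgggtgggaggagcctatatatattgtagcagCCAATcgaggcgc
Cdkn1b before the start: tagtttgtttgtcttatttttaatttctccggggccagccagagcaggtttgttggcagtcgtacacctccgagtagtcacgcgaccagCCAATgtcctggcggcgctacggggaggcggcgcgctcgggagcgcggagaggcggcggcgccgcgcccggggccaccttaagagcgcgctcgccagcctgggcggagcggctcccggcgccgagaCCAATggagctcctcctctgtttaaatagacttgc
Ccne1 before the start: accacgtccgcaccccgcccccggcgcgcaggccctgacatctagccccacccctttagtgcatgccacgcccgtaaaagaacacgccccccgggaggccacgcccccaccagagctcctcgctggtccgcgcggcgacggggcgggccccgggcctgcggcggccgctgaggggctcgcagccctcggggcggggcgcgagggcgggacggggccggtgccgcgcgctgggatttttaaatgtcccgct

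Levels of different genes are compared per kilobase of annotated exon (GENCODE, GRCm38). In untreated Rosa26 cells Cdk4 was highest, at 110.1 CPM per kilobase, ahead of Ccnd2 at 52.7, Ccnd3 at 49.9, Cdk6 at 37.5 and E2f2 at 36.4. Ccne1 (32.0), E2f1 (22.7), Cdkn1b (17.1) and Ccne2 (15.6) followed, and Skp2 was lowest at 3.16 CPM per kilobase. In Rosa26 cells with halofuginone the order at the top was different: Ccnd2 stood at 96.8, Cdk6 at 71.4 and Cdk4 at 70.5 CPM per kilobase. For 9 of the 10 genes the 9 halofuginone libraries lay entirely on one side of the 9 untreated libraries, whatever the genotype. Ccnd3 was the exception. The share of all genes separated in this way was not computed, so the count describes these genes and does not set them apart from others.

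**Figure D1:**
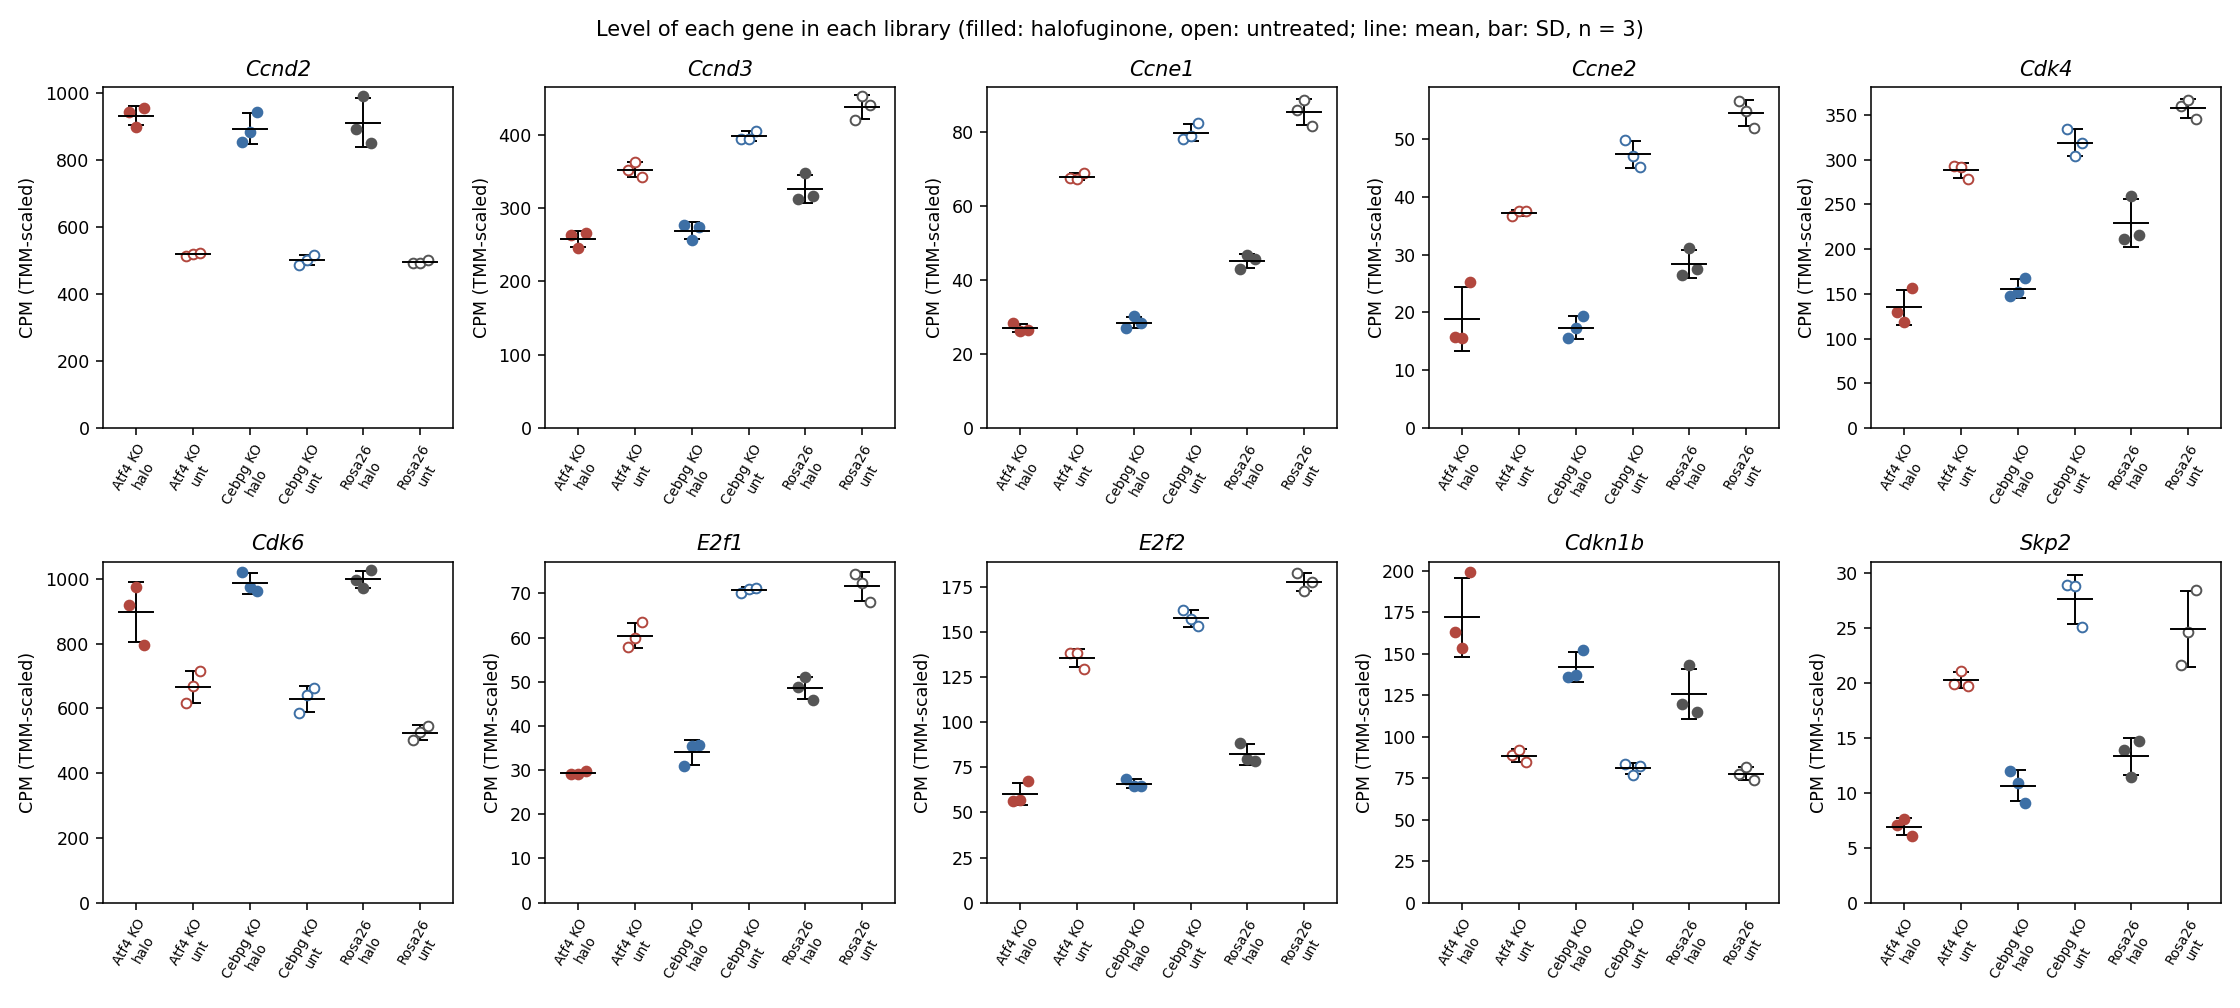
TMM-scaled CPM (y axis, from 0) of each gene in each library, by group along the x axis; circles are libraries, filled with halofuginone and open untreated, with the mean and SD of 3. Ccnd2, Cdk6 and Cdkn1b are higher with halofuginone in each genotype and the other 7 genes are lower.

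The D cyclins moved in opposite directions. Ccnd2 (chromosome 6, 127125162 to 127152193, minus strand, all positions on GRCm38) had 941, 899 and 954 CPM in Atf4 KO cells with halofuginone, against 514, 518 and 523 CPM in untreated Atf4 KO cells. Cebpg KO cells had 853, 882 and 943 CPM with halofuginone, against 485, 501 and 517 CPM untreated. Rosa26 cells had 892, 991 and 849.8 CPM with halofuginone, against 492, 492 and 502 CPM untreated. All drug libraries were above all untreated ones, and the genotypes overlapped with the drug; untreated Atf4 KO libraries lay just above the untreated Rosa26 ones. In edgeR's quasi-likelihood test with Benjamini-Hochberg adjustment over all genes, with a threshold of 0.05, the log2 fold changes ± SE of halofuginone over untreated were 0.85 ± 0.064 in Atf4 KO, 0.83 ± 0.064 in Cebpg KO and 0.88 ± 0.064 in Rosa26 cells (adjusted p = 1.17e-09, 1.29e-09 and 8.87e-10). Ccnd3 (chromosome 17, 47505051 to 47599691, plus strand) had 262, 246 and 265 CPM in Atf4 KO cells with halofuginone, against 351, 362 and 342 CPM in untreated Atf4 KO cells. In Cebpg KO cells the values were 276, 256 and 274 CPM with the drug, against 394, 394 and 405 CPM without it. In Rosa26 cells they were 313, 348 and 317 CPM with the drug, against 419.9, 453 and 439.8 CPM without it. The drug libraries were below the untreated ones within each genotype, but untreated Atf4 KO libraries overlapped Rosa26 libraries with halofuginone. Its fold changes on the log2 scale were -0.45 ± 0.057 in Atf4 KO, -0.56 ± 0.057 in Cebpg KO and -0.43 ± 0.057 in Rosa26 cells (adjusted p = 1.75e-06, 6.95e-08 and 3.71e-06). 

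Their partner kinases were split in the same way. Cdk6 (chromosome 5, 3341485 to 3531008, plus strand) had 921, 976 and 795 CPM in Atf4 KO cells with halofuginone, against 617, 668 and 715 CPM in untreated Atf4 KO cells. With halofuginone Cebpg KO cells held 1022, 975 and 962 CPM, against 586, 640.3 and 663 CPM untreated. With halofuginone Rosa26 cells held 998, 972 and 1026 CPM, against 501, 528 and 545 CPM untreated. With the drug the 3 genotypes overlapped, while untreated Rosa26 libraries lay below all untreated knockout libraries. The kinase rose in each genotype, with log2 fold changes of 0.43 ± 0.078 in Atf4 KO, 0.65 ± 0.078 in Cebpg KO and 0.93 ± 0.078 in Rosa26 cells (adjusted p = 0.00011, 7.12e-07 and 7.01e-09). Cdk4 (chromosome 10, 127063534 to 127067920, plus strand) had 130.0, 119 and 156 CPM in Atf4 KO cells with halofuginone, against 293, 292 and 279 CPM in untreated Atf4 KO cells. Cebpg KO cells had 148, 152 and 168 CPM with halofuginone, against 334, 305 and 319 CPM untreated. Rosa26 cells had 211, 259.6 and 216 CPM with halofuginone, against 359.8, 367 and 346 CPM untreated. The lowest untreated library stood above the highest drug library, and drug-treated Rosa26 libraries stood above all drug-treated knockout libraries. Cdk4 fell, with log2 fold changes of -1.09 ± 0.089 in Atf4 KO, -1.04 ± 0.088 in Cebpg KO and -0.64 ± 0.087 in Rosa26 cells (adjusted p = 3.18e-09, 5.99e-09 and 4.22e-06). 

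Both E cyclins fell. Ccne1 (chromosome 7, 38097984 to 38107534, minus strand) had 28.3, 26.2 and 26.6 CPM in Atf4 KO cells with halofuginone, against 67.7, 67.2 and 68.9 CPM in untreated Atf4 KO cells. In Cebpg KO cells the values were 27.1, 30.1 and 28.3 CPM with the drug, against 78.2, 78.8 and 82.4 CPM without it. In Rosa26 cells they were 43.0, 46.6 and 45.6 CPM with the drug, against 85.9, 88.6 and 81.5 CPM without it. Each drug group was below every untreated group, and the drug-treated knockouts, which overlapped each other, were below drug-treated Rosa26. The log2 fold changes came to -1.33 ± 0.063 in Atf4 KO, -1.49 ± 0.062 in Cebpg KO and -0.92 ± 0.060 in Rosa26 cells (adjusted p = 1.02e-12, 1.77e-13 and 1.55e-10). Ccne2 (chromosome 4, 11191351 to 11204779, plus strand) had 15.7, 15.5 and 25.2 CPM in Atf4 KO cells with halofuginone, against 36.6, 37.5 and 37.5 CPM in untreated Atf4 KO cells. With halofuginone Cebpg KO cells held 15.5, 17.2 and 19.4 CPM, against 49.8, 47.1 and 45.2 CPM untreated. With halofuginone Rosa26 cells held 26.4, 31.2 and 27.6 CPM, against 56.5, 54.9 and 52.0 CPM untreated. Replicate 3 of Atf4 KO with halofuginone was high against its own group yet below every untreated library. For Ccne2 the drug gave log2 fold changes of -0.98 ± 0.13 in Atf4 KO, -1.45 ± 0.13 in Cebpg KO and -0.94 ± 0.13 in Rosa26 cells (adjusted p = 4.94e-06, 2.71e-08 and 5.19e-06). 

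The activator E2F genes fell as well. E2f1 (chromosome 2, 154559407 to 154569892, minus strand) had 29.1, 29.1 and 29.9 CPM in Atf4 KO cells with halofuginone, against 57.9, 59.8 and 63.5 CPM in untreated Atf4 KO cells. Cebpg KO cells had 30.8, 35.5 and 35.8 CPM with halofuginone, against 70.0, 71.0 and 71.3 CPM untreated. Rosa26 cells had 48.8, 51.0 and 45.9 CPM with halofuginone, against 74.4, 72.3 and 68.0 CPM untreated. The 3 drug groups did not overlap each other, with Atf4 KO lowest and Rosa26 highest. The log2 fold changes of E2f1 were -1.04 ± 0.069 in Atf4 KO, -1.06 ± 0.068 in Cebpg KO and -0.56 ± 0.066 in Rosa26 cells (adjusted p = 1.6e-10, 9.37e-11 and 7.6e-07). E2f2 (chromosome 4, 136172394 to 136196057, plus strand) is the gene with the E2F form in a RefSeq start region. It had 56.5, 56.9 and 67.2 CPM in Atf4 KO cells with halofuginone, against 138, 138 and 129.6 CPM in untreated Atf4 KO cells. In Cebpg KO cells the values were 68.6, 64.7 and 64.5 CPM with the drug, against 162, 157 and 153 CPM without it. In Rosa26 cells they were 88.6, 79.4 and 78.5 CPM with the drug, against 182, 173 and 178 CPM without it. Untreated groups were apart from each other, in the order Rosa26, Cebpg KO, Atf4 KO from high to low, and drug-treated knockouts overlapped. Its log2 fold changes were -1.17 ± 0.068 in Atf4 KO, -1.26 ± 0.068 in Cebpg KO and -1.11 ± 0.067 in Rosa26 cells (adjusted p = 2.33e-11, 6.65e-12 and 4.74e-11). 

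The brake and the gene that removes it moved apart. Cdkn1b (chromosome 6, 134920401 to 134925513, plus strand) had 163, 154 and 199 CPM in Atf4 KO cells with halofuginone, against 89.0, 92.1 and 84.5 CPM in untreated Atf4 KO cells. With halofuginone Cebpg KO cells held 136, 137 and 152 CPM, against 83.2, 77.0 and 82.4 CPM untreated. With halofuginone Rosa26 cells held 119, 143 and 115 CPM, against 77.3, 81.9 and 74.0 CPM untreated. All drug libraries exceeded all untreated ones, and drug-treated Atf4 KO exceeded both other drug groups. Cdkn1b rose by log2 fold changes of 0.96 ± 0.091 in Atf4 KO, 0.81 ± 0.091 in Cebpg KO and 0.69 ± 0.091 in Rosa26 cells (adjusted p = 3.03e-08, 2.92e-07 and 2.84e-06). Skp2 (chromosome 15, 9111985 to 9155425, minus strand), the gene with fewest reads here, had 7.06, 7.61 and 6.09 CPM in Atf4 KO cells with halofuginone, against 19.9, 21.1 and 19.7 CPM in untreated Atf4 KO cells. Cebpg KO cells had 12.0, 10.9 and 9.10 CPM with halofuginone, against 28.9, 28.8 and 25.1 CPM untreated. Rosa26 cells had 13.8, 11.4 and 14.7 CPM with halofuginone, against 21.6, 24.6 and 28.5 CPM untreated. The drug libraries of Atf4 KO cells were below those of both other genotypes, which overlapped. Skp2 fell, with log2 fold changes of -1.55 ± 0.13 in Atf4 KO, -1.37 ± 0.12 in Cebpg KO and -0.90 ± 0.12 in Rosa26 cells (adjusted p = 6.47e-09, 1.55e-08 and 3.93e-06). 

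The groups stood in 1 order for several genes. For Ccnd3, Ccne1, Cdk4, E2f1 and E2f2 the mean level went, low to high, Atf4 KO, Cebpg KO and Rosa26 with halofuginone, then Atf4 KO, Cebpg KO and Rosa26 untreated. Among neighbours in that order the drug-treated knockouts overlapped for Ccnd3, Ccne1, Cdk4 and E2f2, and untreated Cebpg KO and Rosa26 libraries overlapped for Ccne1 and E2f1, and drug-treated Rosa26 and untreated Atf4 KO libraries for Ccnd3. Ccne2 had drug-treated Cebpg KO and Atf4 KO cells in the other order, which overlapped. Skp2 had untreated Cebpg KO cells above untreated Rosa26 cells, which overlapped. Of the genes that rose, Cdkn1b had mean levels with Atf4 KO above Cebpg KO above Rosa26 within each treatment. Its Cebpg KO and Rosa26 libraries overlapped in each treatment. Ccnd2 and Cdk6 had overlapping genotypes with the drug.

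The first comparison asks what halofuginone did in each genotype. In Atf4 KO cells 3 of the 10 genes rose and 7 fell, where 23.1% of all 14695 genes rose and 26.5% fell. Cebpg KO cells gave the same 3 and 7, against 23.1% and 28% of all genes. In Rosa26 cells it was again 3 and 7, against 23.6% and 24.1% of all genes. The median log2 fold change of the 10 genes was -1.01 in Atf4 KO, -1.05 in Cebpg KO and -0.60 in Rosa26 cells, beside -0.042, -0.029 and 0.022 over all genes. Every one of these 30 calls was kept under each alternative tried, among them the fit without the 3 libraries low in Malat1. The summed CD4 T cell markers moved with the drug too, to 17.0 to 20.4 CPM, against 11.8 to 13.9 CPM untreated in Atf4 KO, 15.4 to 17.4 against 9.74 to 12.4 CPM in Cebpg KO and 33.6 to 36.3 against 8.19 to 9.09 CPM in Rosa26 cells; the summed CD8 T cell markers were 3017 to 3771 CPM against 3914 to 4063 CPM in Atf4 KO, 3180.4 to 3427 against 3924 to 3964 CPM in Cebpg KO and 3477 to 4118 against 3889 to 3959 CPM in Rosa26 cells. The part of either list in the result was not tested.

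**Figure D2:**
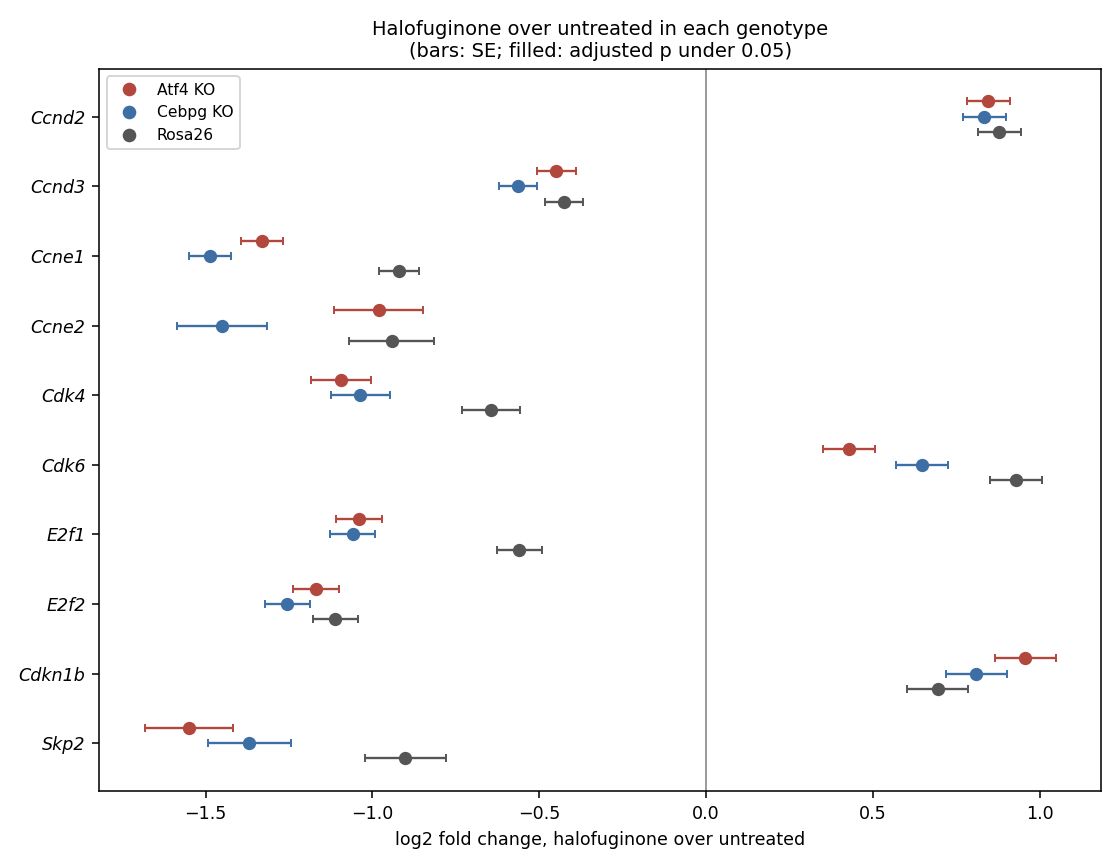
Log2 fold change of halofuginone over untreated (x axis) for each gene (y axis) in Atf4 KO, Cebpg KO and Rosa26 cells, with the SE as bars. Ccnd2 sits at 0.85, 0.83 and 0.88, nearly the same place in each genotype, while Ccne1 sits at -1.33, -1.49 and -0.92.

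The next comparison sets each knockout against Rosa26 without the drug. In untreated Atf4 KO cells 6 genes were lower and 1 was higher, where 14.3% of all genes were lower and 11.7% higher; the median log2 fold change was -0.31 over the 10 genes and 0.018 over all genes. Lower were Ccnd3 (-0.31 ± 0.057), Ccne1 (-0.33 ± 0.059), Ccne2 (-0.55 ± 0.13), Cdk4 (-0.31 ± 0.087), E2f1 (-0.24 ± 0.066) and E2f2 (-0.39 ± 0.065), all log2 fold changes ± SE, with adjusted p between 0.000214 and 0.0118. Cdk6 was higher, by 0.34 ± 0.078 (adjusted p = 0.00294). Ccnd2 (0.065 ± 0.064, adjusted p = 0.478), Cdkn1b (0.19 ± 0.091, adjusted p = 0.141) and Skp2 (-0.30 ± 0.12, adjusted p = 0.0703) missed the threshold. The Cdk4 call ended without Atf4 KO untreated replicate 3 (adjusted p = 0.0521), and Skp2 passed without Rosa26 untreated replicate 1 (adjusted p = 0.0348). Skp2 and Cdkn1b passed with the compared groups alone (0.0121 and 0.0031), and Cdkn1b and Ccnd2 with upper-quartile scaling (0.0061 and 0.0303). With upper-quartile scaling the share of all called genes that were higher moved to 57.6%, beside 44.9% with TMM.

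In untreated Cebpg KO cells none of the 10 genes differed from Rosa26 in edgeR's quasi-likelihood test at an adjusted p of 0.05, with 3 at an unadjusted p under 0.05 and 3 called by DESeq2. Over all genes 2.71% of all genes were higher and 2.29% lower, and the median of the 10 genes was -0.056, against 0.010 over all. The nearest was Cdk6, at 0.26 ± 0.078 (adjusted p = 0.0554), followed by E2f2 at -0.17 ± 0.065 (adjusted p = 0.118) and Ccnd3 at -0.14 ± 0.057 (adjusted p = 0.153). In a fit of the 2 groups alone, 5 genes passed: Cdk6 at 0.27 (adjusted p = 2.37e-05), E2f2 at -0.16 (0.00448), Cdk4 at -0.15 (0.00513), Ccnd3 at -0.13 (0.0156) and Ccne2 at -0.19 (0.0211). The share of called genes that were higher was 26.2% with RLE scaling, beside 54.1% with TMM. Against untreated Atf4 KO cells, untreated Cebpg KO cells had more Ccne1 (0.23 ± 0.059, adjusted p = 0.0344) and Skp2 (0.45 ± 0.12, adjusted p = 0.0413), 2 of 10 genes where 2.01% of all genes were higher and 1.31% lower. Both calls ended when any 1 of the 6 libraries was left out, at adjusted p of 0.0691 to 0.155 for Ccne1 and 0.0663 to 0.165 for Skp2, and with upper-quartile scaling (0.0519 and 0.0764). Malat1 stood at 2026 to 2606 CPM in untreated Atf4 KO and 2048 to 2364 CPM in untreated Cebpg KO cells, against 858 to 1168 CPM in untreated Rosa26 cells; its part in these differences was not tested.

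With halofuginone Atf4 KO cells had 7 genes lower and 1 higher, where 16.3% of all genes were lower and 11.8% higher; the median was -0.52 over the 10 genes and 0.0011 over all genes. Skp2 was furthest below, at -0.95 ± 0.14 (adjusted p = 2.3e-05), then Cdk4 at -0.76 ± 0.088, Ccne1 at -0.74 ± 0.063 and E2f1 at -0.73 ± 0.069, and further Ccne2 at -0.59 ± 0.14, E2f2 at -0.45 ± 0.068 and Ccnd3 at -0.34 ± 0.057. Cdkn1b was the gene that was higher, by 0.45 ± 0.089 (adjusted p = 0.000671). Ccnd2 (0.032 ± 0.064, adjusted p = 0.763) and Cdk6 (-0.15 ± 0.077, adjusted p = 0.153) missed the threshold, with approximate 95% intervals of -0.092 to 0.16 and -0.31 to -0.0023. In a fit of these 2 groups alone Ccne2 lost its call (adjusted p = 0.0677), and without the 3 libraries low in Malat1 the same counts of 7 lower and 1 higher were obtained. Upper-quartile scaling put the share of called genes that were higher at 52.2%, beside 41.9% with TMM.

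Cebpg KO cells with the drug had 6 genes lower than Rosa26 cells with it and none higher, where 13.1% of all genes were lower and 5.74% higher; with upper-quartile scaling 50.7% of called genes were higher, beside 30.4% with TMM. The median was -0.32 over the 10 genes and -0.016 over all genes. Ccne2 (-0.71 ± 0.14), Ccne1 (-0.66 ± 0.063), Cdk4 (-0.56 ± 0.088) and E2f1 (-0.52 ± 0.069) led, with E2f2 (-0.32 ± 0.068) and Ccnd3 (-0.28 ± 0.057) behind, at adjusted p between 6.37e-07 and 0.00238. Skp2 (-0.32 ± 0.13, adjusted p = 0.0963) and Cdkn1b (0.17 ± 0.089, adjusted p = 0.196) missed it, though Cdkn1b passed with upper-quartile scaling (0.26, adjusted p = 0.00606), with a filter of 1 CPM (0.22, adjusted p = 0.0481) and without Rosa26 halofuginone replicate 2 (0.28, adjusted p = 0.0165). Between the knockouts with the drug, Skp2 was higher in Cebpg KO than in Atf4 KO cells by 0.63 ± 0.14 (adjusted p = 0.032); it was the 1 gene of 10 called, where 0.538% of all genes were higher and 0.463% lower. The Skp2 call ended without Atf4 KO replicate 1 or 3 or Cebpg KO replicate 1 or 2 (adjusted p = 0.0677 to 0.19) and with the 2 groups fitted alone (0.415). It also ended with the replicate number as a block (0.0648), and between these 2 groups the same-numbered libraries deviated together. Cdkn1b was lower in Cebpg KO than in Atf4 KO cells with upper-quartile scaling (-0.25, adjusted p = 0.0496) and in DESeq2 (-0.27, adjusted p = 0.0356). Without the 3 libraries low in Malat1 the counts were 6 lower and 1 higher for Cebpg KO against Rosa26 cells, and 3 higher and 1 lower for Cebpg KO against Atf4 KO cells; beyond these counts the part of Malat1 was not tested. Without Atf4 KO halofuginone replicate 3 alone, Cdk4 was also higher in Cebpg KO cells (0.32, adjusted p = 0.0118).

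**Figure D3:**
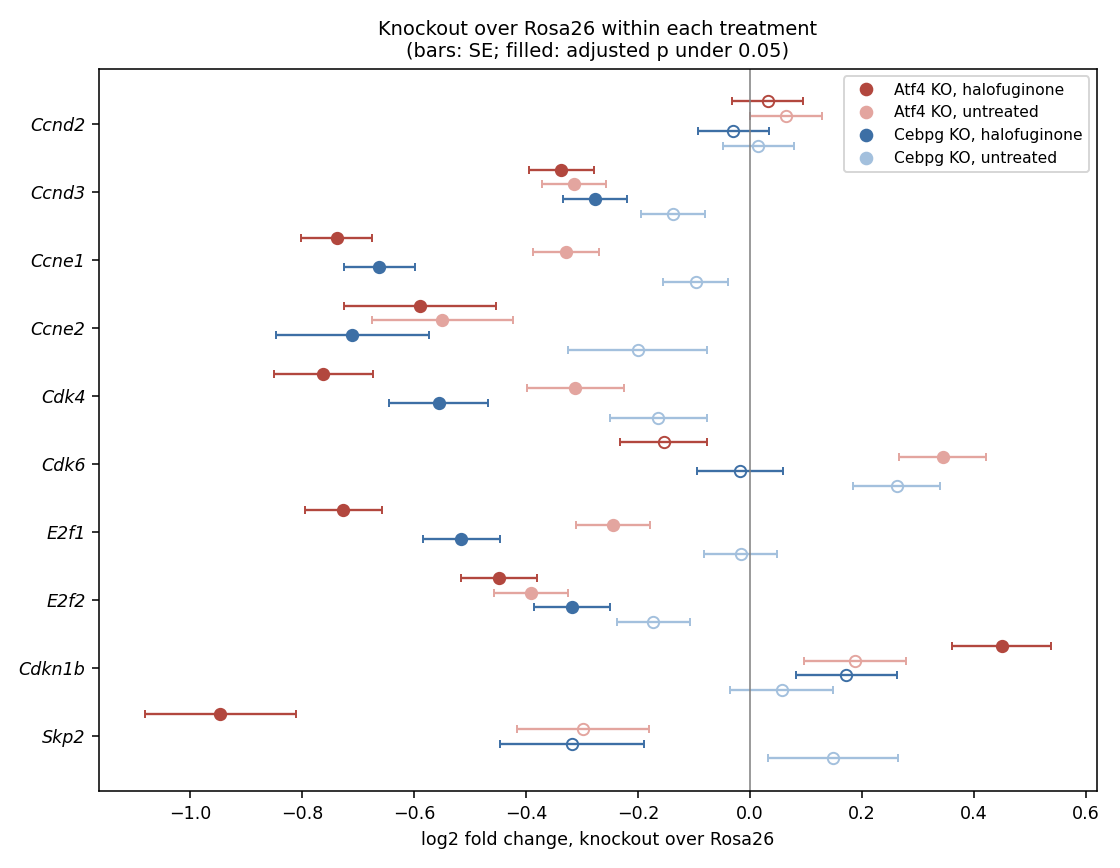
Log2 fold change of each knockout over Rosa26 (x axis) within halofuginone (dark red and blue) and untreated (pale red and blue) cells, for each gene (y axis), with the SE as bars and open circles where the adjusted p was not under 0.05. Skp2 in Atf4 KO cells lies at -0.95 with the drug and -0.30 without it; Ccnd2 lies near 0 throughout.

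Whether the drug acted differently in the knockouts was tested as an interaction, the drug's log2 fold change in the knockout minus that in Rosa26. For Atf4 KO 5 of the 10 genes were called, all negative, where 2.41% of all genes were positive and 4.01% negative; with RLE scaling 59% of called genes were positive, beside 37.5% with TMM. Of the 5 genes, 4 fell more in Atf4 KO than in Rosa26 cells: the difference was -0.48 ± 0.095 (adjusted p = 0.00404) for E2f1, -0.41 ± 0.086 (adjusted p = 0.00614) for Ccne1, -0.45 ± 0.12 (adjusted p = 0.0331) for Cdk4 and -0.65 ± 0.18 (adjusted p = 0.0346) for Skp2. The other was Cdk6, whose rise was smaller in Atf4 KO cells, a difference of -0.50 ± 0.11 (adjusted p = 0.00859). Calls for E2f1, Ccne1 and Cdk6 were kept under each alternative. The Cdk4 call ended in 8 of 12 fits that left out 1 library (adjusted p = 0.0518 to 0.0827), namely Atf4 KO halofuginone replicates 1 and 2 and every untreated Atf4 KO and Rosa26 library. The Skp2 call ended in 9 of 12 (0.0581 to 0.111), that is with all but Atf4 KO halofuginone replicate 2, Rosa26 halofuginone replicate 2 and Rosa26 untreated replicate 3. Both calls also ended with the compared groups alone (adjusted p = 0.0807 for Cdk4 and 0.063 for Skp2) and with the replicate number as a block (0.0551 and 0.0585). That of Skp2 ended with RLE scaling (0.0561), upper-quartile scaling (0.0501) and a filter of 1 CPM (0.0558) as well. Cdkn1b, not called here (0.26 ± 0.13, adjusted p = 0.263), passed without Rosa26 halofuginone replicate 2 (0.39, adjusted p = 0.0204) and without the 3 libraries low in Malat1 (0.24, adjusted p = 0.0319).

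For Cebpg KO 2 genes were called, both negative: Ccne1 at -0.57 ± 0.086 (adjusted p = 0.000785) and E2f1 at -0.50 ± 0.095 (adjusted p = 0.00551). Over all genes 0.374% were positive and 2.1% negative, and with RLE scaling 40.7% of called genes were positive, beside 15.2% with TMM. Both calls were kept under each alternative. Ccne2 (-0.51 ± 0.18, adjusted p = 0.192), Skp2 (-0.47 ± 0.17, adjusted p = 0.205) and Cdk4 (-0.39 ± 0.12, adjusted p = 0.111) missed the threshold, though Cdk4 passed with upper-quartile scaling (-0.35, adjusted p = 0.028) and Ccne2 with the compared groups alone (-0.43, adjusted p = 0.0439). Without the 3 libraries low in Malat1 the count rose to 5, with Ccne2 at -0.53, Cdk4 at -0.35 and Cdk6 at -0.28 added (adjusted p = 0.00229, 0.000538 and 0.0142). The difference between the knockouts' drug effects called none of the 10 genes in edgeR, with 1 at an unadjusted p under 0.05, and none in DESeq2; over all genes 0.00681% were positive and 0.00681% negative, and with upper-quartile scaling 81.8% of 11 called genes were positive, beside 50% of 2 with TMM. Its approximate 95% intervals were wide for some genes, such as -0.84 to -0.10 for Ccne2, whose unadjusted p was under 0.05, and -0.17 to 0.54 for Skp2. These comparisons share the Rosa26 libraries, so their values stand side by side and not as separate support.

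The ratio of reads of related genes within a library does not depend on scaling. It is not corrected for length, so only its shift between groups is read, and it is given as a description with no test. The log2 ratio of Ccnd2 over Ccnd3 was 1.84, 1.87 and 1.85 in Atf4 KO cells with halofuginone, against 0.55, 0.51 and 0.61 untreated. In Cebpg KO cells it was 1.63, 1.79 and 1.78 with the drug, against 0.30, 0.34 and 0.35 without. Rosa26 cells had 1.51, 1.51 and 1.42, against 0.23, 0.12 and 0.19. Ccnd2 thus gained on Ccnd3 in each genotype, and the 6 groups did not overlap. Cdk6 over Cdk4 shifted further, to a log2 ratio of 2.83, 3.04 and 2.35 in Atf4 KO cells with halofuginone, against 1.07, 1.19 and 1.36 untreated. The Cebpg KO values were 2.79, 2.68 and 2.52, against 0.81, 1.07 and 1.06, and the Rosa26 values 2.24, 1.90 and 2.25, against 0.48, 0.52 and 0.66. In linear terms the mean ratio of reads was 6.67, 6.35 and 4.38 with halofuginone in Atf4 KO, Cebpg KO and Rosa26 cells, against 2.31, 1.97 and 1.47 untreated. The E cyclins kept closer to each other: Ccne1 over Ccne2 averaged a log2 ratio of 0.56 ± 0.42 in Atf4 KO cells with halofuginone, against 0.87 ± 0.024 untreated, 0.72 ± 0.15 against 0.75 ± 0.11 in Cebpg KO cells, and 0.67 ± 0.078 in Rosa26 cells with halofuginone, against 0.65 ± 0.043 untreated (SD, n = 3 each). E2f2 over E2f1 was lower with the drug in Rosa26 cells, 0.76 ± 0.11 against 1.31 ± 0.066, and overlapped between treatments in both knockouts.

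**Figure D4:**
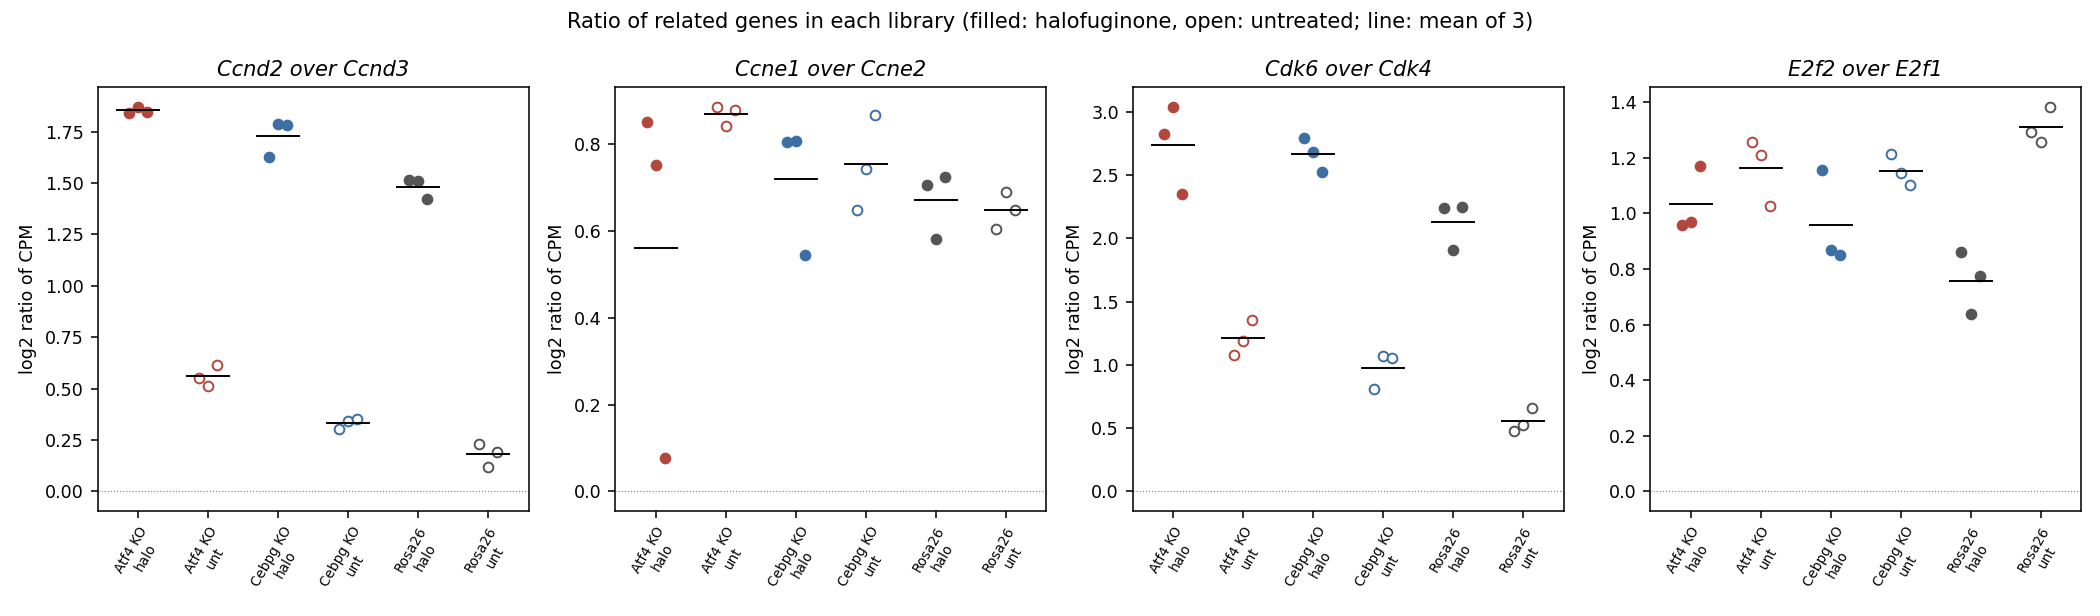
Log2 ratio of the CPM of related genes in each library (y axis) by group (x axis); filled circles are halofuginone, open circles untreated, and the line is the mean of 3. The Ccnd2 over Ccnd3 and Cdk6 over Cdk4 ratios are higher in all halofuginone libraries than in all untreated ones, and 1 Atf4 KO library with halofuginone, replicate 3, lies low for Ccne1 over Ccne2 at 0.076.

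The rest of the pathway was read through 6 lists holding 53 genes, of which 51 were measured. Of 19 textbook E2F target genes of DNA replication, 19 fell with halofuginone in each genotype, where 26.5% of all genes fell in Atf4 KO, 28% in Cebpg KO and 24.1% in Rosa26 cells, with a median log2 fold change of -1.15 in Atf4 KO, -1.32 in Cebpg KO and -0.85 in Rosa26 cells. The deepest falls in Rosa26 cells were those of Ccna2, cyclin A2 of S and G2 phase (-1.70 ± 0.074, adjusted p = 4.46e-13), and Rrm2, the small subunit of ribonucleotide reductase (-1.34 ± 0.068, adjusted p = 3.37e-12). All 19 were also lower in untreated Atf4 KO than in untreated Rosa26 cells (median -0.50), where 14.3% of all genes were, and 3 of 19 were lower in untreated Cebpg KO cells (median -0.17), where 2.29% of all genes were. Against untreated Atf4 KO cells, untreated Cebpg KO cells had 10 of 19 higher (median 0.29), where 2.01% of all genes were. With the drug 19 were lower than in Rosa26 cells in Atf4 KO (median -0.77) and 19 in Cebpg KO (median -0.62), where 16.3% and 13.1% of all genes were. In the interactions 11 were called for Atf4 KO and 12 for Cebpg KO, all negative, where 4.01% and 2.1% of all genes were, with counts of 6 to 16 for each over the alternatives. Pola1, the catalytic subunit of DNA polymerase alpha, had the smallest p in both, at -0.50 ± 0.082 (adjusted p = 0.00102) and -0.67 ± 0.082 (adjusted p = 6.71e-05).

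Among 11 pocket proteins and other E2F and DP factors, 3 rose and 7 fell in Atf4 KO, 3 and 7 in Cebpg KO, and 3 and 6 in Rosa26 cells. Of all genes 23.1% rose and 26.5% fell in Atf4 KO, 23.1% and 28% in Cebpg KO, and 23.6% and 24.1% in Rosa26 cells, so the share that rose is near that of all genes. E2f5, a repressive E2F, rose by 0.64 ± 0.10 in Atf4 KO, 0.98 ± 0.11 in Cebpg KO and 0.51 ± 0.11 in Rosa26 cells, and Tfdp2, a dimerisation partner of E2F, by 0.50 ± 0.076, 0.36 ± 0.077 and 0.53 ± 0.077. The atypical repressors E2f8 (-1.65 ± 0.083, -2.02 ± 0.083 and -1.41 ± 0.079) and E2f7 (-1.50 ± 0.12, -1.93 ± 0.12 and -1.21 ± 0.11) fell in the same 3 genotypes. The fall of E2f8 was greater in Cebpg KO than in Rosa26 cells, with a difference of -0.61 ± 0.11 (adjusted p = 0.00459). Of 5 measured CDK inhibitors, 1 rose and 2 fell in Atf4 KO and in Cebpg KO cells, and 1 rose and 1 fell in Rosa26 cells, which over 5 genes and beside those shares is no result about the list. Cdkn1a, which encodes p21, rose by 0.23 ± 0.085, 0.38 ± 0.087 and 0.84 ± 0.087 in Atf4 KO, Cebpg KO and Rosa26 cells, and its rise was smaller in Atf4 KO than in Rosa26 cells, with a difference of -0.61 ± 0.12 (adjusted p = 0.00402). In Atf4 KO cells the list held 0 to 1 genes called as rising over the alternatives. Cdkn2c, which encodes p18 of the INK4 family, changed by -1.68 ± 0.094, -1.72 ± 0.094 and -1.46 ± 0.088.

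The list named other cyclins and kinases of G1 had 5 measured genes, Cdk2, Cdc25a, Ccnh, Cdk7 and Mnat1. Of these, 2 fell in Atf4 KO, 3 in Cebpg KO and 3 in Rosa26 cells, with none rising. Over all genes 26.5%, 28% and 24.1% fell. Cdk2, the partner of cyclin E, stood at -0.89 ± 0.067, -1.01 ± 0.067 and -0.63 ± 0.065 in that order of genotypes, and Cdc25a, the phosphatase that activates CDK2, at -0.95 ± 0.057, -1.12 ± 0.057 and -0.75 ± 0.056. The fall of Cdc25a was greater in Cebpg KO than in Rosa26 cells (-0.37 ± 0.079, adjusted p = 0.0129), a call that ended without Cebpg KO halofuginone replicate 2 (adjusted p = 0.0841), Cebpg KO untreated replicate 2 (0.051) or Rosa26 halofuginone replicate 2 (0.0638). Of 7 partners and regulators of the Skp2 ligase and of the APC ligase, 4 fell in Atf4 KO, 5 in Cebpg KO and 5 in Rosa26 cells, where 26.5%, 28% and 24.1% of all genes fell; none rose. Cks1b, the cofactor with which Skp2 binds p27, stood at -1.42 ± 0.11, -1.59 ± 0.11 and -1.35 ± 0.11, and Fbxo5, an inhibitor of the APC, at -1.27 ± 0.069, -1.39 ± 0.068 and -1.27 ± 0.067. Of 4 upstream factors, 2 rose and 1 fell in each genotype, where 23.1% to 23.6% of all genes rose and 24.1% to 28% fell, and 4 genes are too few to set the list apart. Foxo1 (0.49 ± 0.060, 0.59 ± 0.060 and 0.33 ± 0.060) and Foxo3 (0.48 ± 0.061, 0.42 ± 0.062 and 0.41 ± 0.062) rose. Foxo4 changed by -0.34 ± 0.12, -0.83 ± 0.12 and -0.79 ± 0.12. In Atf4 KO cells this list held 0 to 1 genes called as falling over the alternatives.

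**Figure D5:**
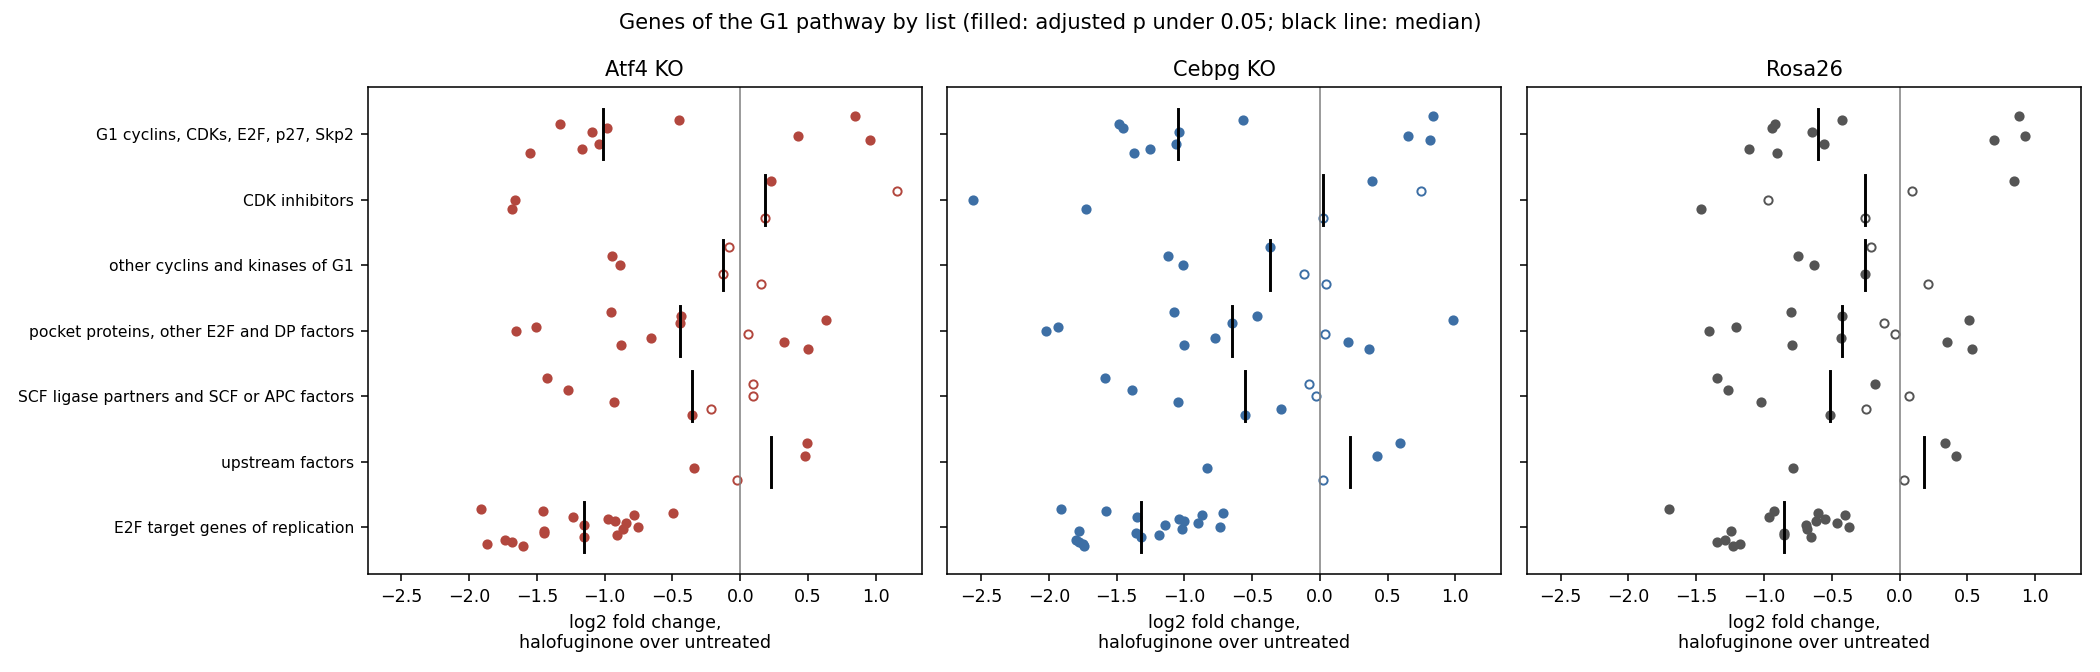
Log2 fold change of halofuginone over untreated (x axis) for the genes of each list (rows) in Atf4 KO, Cebpg KO and Rosa26 cells; filled circles passed the test, and the black line is the median of the list. All 19 E2F target genes lie left of 0 in each genotype, with medians of -1.15, -1.32 and -0.85.

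Likeness of pattern was measured as Pearson's r of log2 CPM over the 18 libraries, which all share the drug contrast, and it is a description. Nearest to Cdk4 was Mcm5 (r = 0.998), to E2f2 Fbxo5 (r = 0.997), to Ccne1 Rfc1 (r = 0.995), to E2f1 Chaf1a (r = 0.994) and to Ccne2 Usp1 (r = 0.992). The nearest gene was Hspd1 (r = 0.994) for Ccnd3 and Fanca (r = 0.989) for Skp2. Among the genes that rose, Ccnd2 was nearest to Arhgap25 (r = 0.993), Cdkn1b to Fam241a (r = 0.993) and Cdk6 to Dock2 (r = 0.981).

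Some exons overlap those of a gene on the other strand, and the strand setting of the counting is not given in the sources used here, so reads of the pairs may be mixed. Ccnd3 shares 361 bases with Bysl, Ccne2 609 bases with Ints8 and Cdk4 641 bases with Tspan31 in the GRCm38 annotation. The log2 fold changes of halofuginone over untreated in Atf4 KO, Cebpg KO and Rosa26 cells were -0.45, -0.34 and -0.29 for Bysl, -0.26, -0.22 and -0.25 for Ints8 and -0.36, -0.51 and -0.34 for Tspan31. The falls of Ints8 and Tspan31 were smaller in size than those of Ccne2 and Cdk4 in each genotype. Bysl fell as much as Ccnd3 in Atf4 KO cells (-0.45 for each). Its fall was smaller than that of Ccnd3 in Cebpg KO (-0.34 against -0.56) and Rosa26 cells (-0.29 against -0.43). None of these differences was tested. Ccnd2 and Cdk6 overlap antisense genes as well, by 368 to 372 bases.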

How the data were processed

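The authors deposited 1 table of raw counts, in which each value is the number of reads of a gene in a library. FastQC, MultiQC, Trimmomatic, STAR, HTSeq, edgeR and GRCm39 are named in the submitters' processing notes; the tools' versions, the strand setting and the annotation release were not found there. Directional poly-A libraries were made with dUTP, per the labels' protocols. Of 449 blank gene names 431 were filled by identifier from a GRCm38 annotation. All 18 libraries entered 1 fit with 6 groups in edgeR 4.0.16 (R 4.3.3): TMM factors, filterByExpr with a minimum count of 10, robust quasi-likelihood F tests, and Benjamini-Hochberg adjustment over 14695 genes in each of 12 comparisons, with a threshold of 0.05. The SE is the fold change over the root of F. Log2 CPM used a prior count of 2. The scripts were tested on simulated data. Alternatives were RLE and upper-quartile scaling, other filters, DESeq2 1.42.0, the compared groups alone, a replicate block, each library left out, and the 3 halofuginone libraries lowest in Malat1 left out. Named genes are the 10 genes in each comparison; of each list the 2 highest and 2 lowest past the threshold in Rosa26 cells with the drug, and in each interaction the smallest p past it. The genes, lists and the 3 libraries left out together were chosen with earlier results of these data known. Same-numbered libraries deviated together (correlations of 0.25, 0.25 and 0.53) between Atf4 KO and Cebpg KO with halofuginone, by the rule that all 3 exceed 0.1; the labels state no pairing. Likeness was sought among genes of at least 5 mean CPM.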

Additional observations from a re-analysis of the deposited data

Results flagged for a closer look

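In each case below the effect of halofuginone differed between a knockout and Rosa26 cells by a test of the difference itself (edgeR's quasi-likelihood interaction, adjusted over 14695 genes), and no explanation was weighed. For Atf4 KO minus Rosa26 the differences in log2 fold change were -0.41 ± 0.086 (adjusted p = 0.00614) for Ccne1, -0.48 ± 0.095 (adjusted p = 0.00404) for E2f1, -0.50 ± 0.11 (adjusted p = 0.00859) for Cdk6, -0.45 ± 0.12 (adjusted p = 0.0331) for Cdk4 and -0.65 ± 0.18 (adjusted p = 0.0346) for Skp2. The Cdk4 and Skp2 calls ended with the compared groups alone (adjusted p = 0.0807 for Cdk4 and 0.063 for Skp2) and with the replicate number as a block (0.0551 and 0.0585). Leaving out 1 library ended the Cdk4 call in 8 of 12 fits and the Skp2 call in 9 of 12. The Skp2 call also ended with RLE scaling (0.0561), upper-quartile scaling (0.0501) and the 1 CPM filter (0.0558). Among the listed pathway genes the differences were -0.61 ± 0.12 (adjusted p = 0.00402) for Cdkn1a and -0.50 ± 0.082 (adjusted p = 0.00102) for Pola1.

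For Cebpg KO minus Rosa26 the differences were -0.57 ± 0.086 (adjusted p = 0.000785) for Ccne1 and -0.50 ± 0.095 (adjusted p = 0.00551) for E2f1. The gene with the smallest p of its own list, for the 3 lists that had one past the threshold, was Pola1 at -0.67 ± 0.082 (adjusted p = 6.71e-05), E2f8 at -0.61 ± 0.11 (adjusted p = 0.00459) and Cdc25a at -0.37 ± 0.079 (adjusted p = 0.0129). Cdk6 and Cdkn1a rose with the drug in Atf4 KO cells (by 0.43 ± 0.078 and 0.23 ± 0.085), and by more in Rosa26 cells (by 0.93 ± 0.078 and 0.84 ± 0.087), so their negative differences are smaller rises. The Cdkn1a rise in Atf4 KO cells was not called under every alternative. The other differences given here are deeper falls.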

How the results depend on the processing

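The 3 drug comparisons called all 10 genes, in the same directions, under every alternative run. Of 1859 member values under alternatives, 1691 kept direction and side of the threshold, 48 lost the call, 58 gained it and 62 changed sign; none that changed sign had been called. For untreated Atf4 KO against Rosa26 the count of 7 became 9 with upper-quartile scaling, 9 with the compared groups alone and 9 with the low-Malat1 libraries left out. For Cebpg KO against Rosa26 with halofuginone the count of 6 became 7 with upper-quartile scaling, 7 with the 1 CPM filter and 7 with the low-Malat1 libraries left out. For untreated Cebpg KO against Rosa26, 0 genes were called, but 2 with RLE scaling, 1 with upper-quartile scaling, 2 with the 1 CPM filter, 3 with DESeq2, 5 with the compared groups alone and 5 with the low-Malat1 libraries left out. For untreated Cebpg KO against Atf4 KO the count of 2 became 0 with upper-quartile scaling, 4 with the 1 CPM filter and 5 with DESeq2. It became 7 with the compared groups alone, 7 with the low-Malat1 libraries left out, and 0 to 0 with 1 library left out. With RLE scaling E2f1 was called as well in edgeR's test (adjusted p = 0.0448). For Cebpg KO against Atf4 KO with halofuginone the count of 1 became 2 with upper-quartile scaling, 2 with DESeq2, 0 with the compared groups alone, 4 with the low-Malat1 libraries left out and 0 to 1 with 1 library left out. The count of 5 in the Atf4 KO interaction became 4 with RLE scaling, 4 with upper-quartile scaling and 4 with the 1 CPM filter, each by the loss of Skp2, 3 with the compared groups alone, 6 with the low-Malat1 libraries left out and 3 to 6 with 1 library left out, and the 2 of the Cebpg KO interaction became 5 with the low-Malat1 libraries left out. The compared groups alone and the reduced sets of libraries use fewer libraries and another estimate of the spread; otherwise the cause was not tested. Of 45 same-numbered pairs of libraries 9 had deviations correlated over 0.1 and 12 under -0.1. In 1 of 15 pairs of groups, Atf4 KO and Cebpg KO with halofuginone, all 3 were over 0.1; in the others the libraries share only a number. With the replicate number as a block the counts became 0 for untreated Cebpg KO against Atf4 KO, 0 for Cebpg KO against Atf4 KO with halofuginone and 3 for the Atf4 KO interaction, by the loss of Cdk4 and Skp2; no other count over the 10 genes moved with it. Testing without the filter on low counts gave the same fit, since each gene passes it. Its values could not differ from the main ones, and they are counted among the 1691 that were kept. DESeq2 gave no adjusted p for Skp2 in the interaction between the knockouts. Upper-quartile scaling moved the median log2 fold change of all genes in Cebpg KO cells with halofuginone against untreated by 0.11, and no other comparison moved by over 0.1. 

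Over all genes, untreated Atf4 KO against Rosa26 had 3827 genes called, but 5997 with the compared groups alone, 6164 with the low-Malat1 libraries left out. Untreated Cebpg KO against Rosa26 had 735 genes called, but 1536 with RLE scaling, 1533 with the 1 CPM filter, 2020 with DESeq2, 4044 with the compared groups alone, 3932 with the low-Malat1 libraries left out, 203 to 325 with 1 library left out. Untreated Cebpg KO against Atf4 KO had 488 genes called, but 915 with DESeq2, 1723 with the compared groups alone, 1739 with the low-Malat1 libraries left out, 160 to 264 with 1 library left out. Atf4 KO against Rosa26 with halofuginone had 4128 genes called, but 2500 with the compared groups alone. Cebpg KO against Rosa26 with halofuginone had 2773 genes called, but 1775 to 2872 with 1 library left out. Cebpg KO against Atf4 KO with halofuginone had 147 genes called, but 223 with RLE scaling, 291 with upper-quartile scaling, 238 with the 1 CPM filter, 90 with the replicate block, 501 with DESeq2, 1 with the compared groups alone, 724 with the low-Malat1 libraries left out, 22 to 404 with 1 library left out. The Atf4 KO interaction had 943 genes called, but 1508 with DESeq2, 607 with the compared groups alone, 2192 with the low-Malat1 libraries left out, 650 to 1477 with 1 library left out. The Cebpg KO interaction had 363 genes called, but 648 with DESeq2, 1053 with the low-Malat1 libraries left out, 210 to 434 with 1 library left out. The interaction between the knockouts had 2 genes called, but 11 with upper-quartile scaling, 53 with DESeq2, 61 with the low-Malat1 libraries left out, 1 to 4 with 1 library left out.

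Uncalled genes changed sign as follows (log2 fold change). In untreated Cebpg KO against Rosa26, Ccnd2 went to -0.015 with RLE scaling, -0.012 with the 1 CPM filter, -0.015 with DESeq2, -0.0076 to 0.038 with 1 library left out. E2f1 went to 0.034 with upper-quartile scaling, -0.052 to 0.013 with 1 library left out. In Atf4 KO against Rosa26 with halofuginone, Ccnd2 went to -0.015 to 0.080 with 1 library left out. In Cebpg KO against Rosa26 with halofuginone, Ccnd2 went to 0.0023 with RLE scaling, 0.059 with upper-quartile scaling, 0.018 with the 1 CPM filter, 0.0022 with DESeq2, 0.018 with the compared groups alone, -0.077 to 0.039 with 1 library left out. Cdk6 went to 0.013 with RLE scaling, 0.069 with upper-quartile scaling, 0.027 with the 1 CPM filter, 0.013 with DESeq2, 0.030 with the compared groups alone, -0.044 to 0.0095 with 1 library left out. In Cebpg KO against Atf4 KO with halofuginone, Ccne2 went to 0.055 with the low-Malat1 libraries left out, -0.24 to 0.14 with 1 library left out. In the Atf4 KO interaction, Ccnd2 went to 0.021 with RLE scaling, 0.029 with the 1 CPM filter, 0.021 with DESeq2, 0.012 with the low-Malat1 libraries left out, -0.080 to 0.058 with 1 library left out. Ccnd3 went to 0.031 with RLE scaling, 0.038 with the 1 CPM filter, 0.031 with DESeq2, 0.0034 with the low-Malat1 libraries left out, -0.052 to 0.053 with 1 library left out. Ccne2 went to 0.010 with RLE scaling, 0.017 with the 1 CPM filter, 0.0087 with DESeq2, -0.24 to 0.080 with 1 library left out. E2f2 went to -0.089 to 0.0011 with 1 library left out. In the Cebpg KO interaction, Ccnd2 went to 0.018 with RLE scaling, 0.030 with the 1 CPM filter, 0.018 with DESeq2, 0.031 with the compared groups alone, -0.093 to 0.058 with 1 library left out. In the interaction between the knockouts, Ccnd2 went to 0.034 with upper-quartile scaling, 0.0011 with the 1 CPM filter, 0.00 with the compared groups alone, -0.057 to 0.019 with 1 library left out. Cdk4 went to -0.028 to 0.16 with 1 library left out. E2f1 went to 0.030 with upper-quartile scaling, -0.058 to 0.051 with 1 library left out. E2f2 went to 0.019 with the low-Malat1 libraries left out.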

Other observations

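For most of the 10 genes the spread between replicates was larger with the drug. The median coefficient of variation of CPM was 10.2% with halofuginone in Atf4 KO cells, against 3.32% untreated, 5.88% against 3.67% in Cebpg KO cells, and 7.39% against 4.21% in Rosa26 cells. It was smaller with the drug for E2f1 in Atf4 KO cells (1.62% against 4.76%), for Cdk6 in Cebpg KO cells (3.21% against 6.33%) and for Cdk6 (2.74% against 4.24%), Skp2 (12.7% against 13.8%) and Ccne1 (4.08% against 4.20%) in Rosa26 cells. E2f6 and E2f7, named after their values were seen, had a drug effect that was more negative in Cebpg KO than in Rosa26 cells, by a difference of -0.53 ± 0.10 (adjusted p = 0.00533) for E2f6 and -0.72 ± 0.17 (adjusted p = 0.0217) for E2f7, in edgeR's test over all genes. E2f6 did not pass the test with the drug in Rosa26 cells (-0.12 ± 0.070, adjusted p = 0.187). Myc, a driver of D cyclins and of Cdk4, had drug values of -0.028 ± 0.068 (adjusted p = 0.772), 0.020 ± 0.068 (adjusted p = 0.839) and 0.034 ± 0.068 (adjusted p = 0.717) in Atf4 KO, Cebpg KO and Rosa26 cells, and Rb1, the retinoblastoma gene, 0.059 ± 0.061, 0.037 ± 0.062 and -0.031 ± 0.062.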
